A study of Mus musculus with 15 samples.

Results

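The T cell receptor (TCR) alpha loops described here are the CDR3 peptides that end in GGRALI, the end that mouse joining segment TRAJ15 gives to a CDR3. They were chosen by that end alone, without regard to read number or group, and 1934 of the 92219 distinct CDR3 peptides of the series carried it. Joining segments were read from peptide ends known in general and not checked against a germline sequence here. The RefSeq gene table for mouse (GRCm38.p6), used only for names and gene order, places Traj15 between Traj16 and Traj14.

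The study sequenced TCR alpha chains of sorted CD8+ T cells from male C57BL/6 mice, all of which carried one fixed transgenic TCRbeta chain (TCRbtg). The 5 Naive libraries (CD8b+ CD4neg CD44lo CD122neg) and the 5 MP libraries (memory-phenotype, CD44hi CD122+) came from spleen and lymph nodes, pooled, at 9 weeks of age. The 5 Tumour libraries held CD8b+ CD4neg cells, sorted without a CD44 or CD122 gate, from prostate tumours of TCRbtg TRAMP+/- males at 27 weeks. TRAMP mice develop prostate cancer from a transgene expressed in the prostate. Tissue, age, TRAMP genotype and sorting gate all differed between Tumour and the other groups and cannot be told apart. With the beta chain fixed, TCRs of these mice differ chiefly in the alpha chain. The series design counts 5 mice for the Naive and MP sorts and 5 tumour-bearing males, and it leaves unstated whether equal numbers in Naive and MP mark the same mouse.

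A TCR alpha CDR3 is built when one variable (V) segment is joined to one joining (J) segment. Exonucleases trim both segment ends and nucleotides can be added between them, so that loops of one J segment share their last residues and differ in the V-derived start and the join. The CDR3 lies over the bound peptide when the receptor meets a peptide-MHC complex, and memory-phenotype CD8+ T cells are known as cells that take on memory markers without deliberate immunization. Only TCR alpha CDR3s were measured, so the sorted cell types could not be checked against their marker genes. The invariant alpha chains of NKT and MAIT cells use other J segments and do not end in GGRALI.

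Libraries held 547665 to 943699 reads. The number of distinct CDR3s set the groups and 2 MP libraries apart: 14914 to 29559 in Naive, 12401 in MP 1 and 13950 in MP 5, 2216 to 3392 in the other MP libraries and 934 to 2657 in Tumour. No library listed a peptide with fewer than 2 reads, so a loop that is not listed had at most 1 read or was removed by a filter that is not stated. In bulk libraries, more cells with a loop and more TCR RNA per cell cannot be told apart.

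The loops with the highest mean share of reads in each group, which the values below turn on, show what varies in front of the shared end. In Naive the 4 leading loops were the following.
Naive rank 1: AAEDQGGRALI
Naive rank 2: AIDYQGGRALI
Naive rank 3: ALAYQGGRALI
Naive rank 4: ATYQGGRALI
In MP a different set led, apart from the Naive leader in rank 4.
MP rank 1: APYQGGRALI
MP rank 2: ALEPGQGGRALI
MP rank 3: AIQGGRALI
MP rank 4: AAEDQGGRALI
MP rank 5: ATDADQGGRALI
In Tumour the leading loop of MP came second.
Tumour rank 1: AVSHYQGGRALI
Tumour rank 2: APYQGGRALI
Tumour rank 3: ANYQGGRALI
Tumour rank 4: AEIYQGGRALI

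GGRALI loops held between 0.397% and 3.29% of the reads of a library, and the spread between libraries was narrowest in Naive. The share was 2.38%, 2.41%, 2.34%, 1.97% and 2.13% of reads in Naive 1 to 5, a mean of 2.25% ± 0.190 (SD, n = 5). In MP 1 to 5 it was 1.38%, 0.958%, 2.44%, 1.96% and 1.06%, a mean of 1.56% ± 0.628 (SD, n = 5). Tumour 1 to 5 had 3.29%, 2.25%, 1.82%, 2.12% and 0.397%, a mean of 1.98% ± 1.04 (SD, n = 5). The ranges overlapped in every pair of groups. MP 3 was above all Naive libraries while MP 2, MP 5 and MP 1 were below them, and Tumour held both the highest and the lowest library.

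None of these differences passed an exact two-sided permutation test over libraries, adjusted by Benjamini-Hochberg over the 39 J segments that could be assigned. MP minus Naive was -0.687 percentage points (adjusted p = 0.0938, exact), Tumour minus MP 0.417 (adjusted p = 0.598, exact, and 0.0882 without Tumour 1 or 0.812 without Tumour 5) and Tumour minus Naive -0.270 (adjusted p = 0.769, exact). J segment shares as such moved often: 71.8% of the 39 segments passed between MP and Naive, 25.6% between Tumour and MP and 38.5% between Tumour and Naive. The MP and Naive difference did pass without MP 3 (-0.907 points, adjusted p = 0.0229, exact). It also passed once the leading loops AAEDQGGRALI and APYQGGRALI were left out (-0.700 points, adjusted p = 0.0115, exact).

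**Figure D1:**
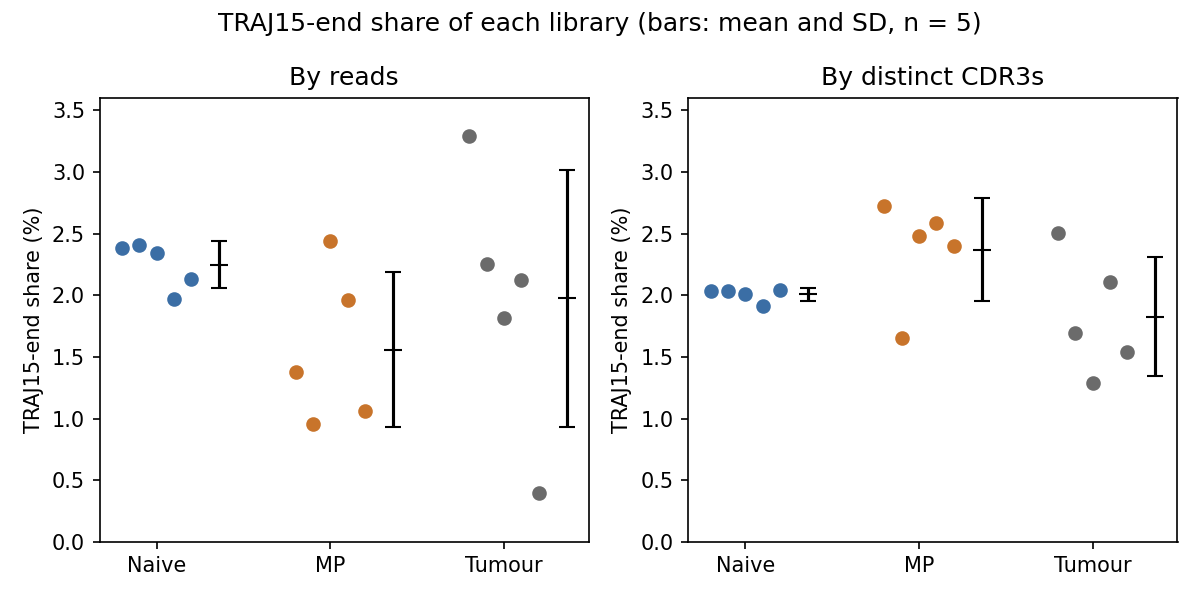
Share of each library's reads (left) and of its distinct CDR3s (right) that end in GGRALI, in percent, with 1 point per library and the mean and SD of 5 libraries beside it. Naive libraries lie between 1.97% and 2.41% of reads, and MP and Tumour libraries lie on both sides of them.

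Counted by distinct CDR3, the loops made up 2.01% ± 0.0527 of the Naive, 2.37% ± 0.420 of the MP and 1.83% ± 0.483 of the Tumour repertoire (SD, n = 5). No comparison passed (exact permutation test, adjusted p = 0.147 for MP and Naive, 0.177 for Tumour and MP, and 0.473 for Tumour and Naive). With possible reading errors folded into the abundant CDR3 they resemble, Tumour minus Naive moved from -0.183 to -0.577 points (adjusted p = 0.0802, exact) and Tumour minus MP from -0.544 to -0.874 (adjusted p = 0.0825, exact). The segments that passed by this count were 43.6% between MP and Naive, 0% between Tumour and MP (13 of 39 had an unadjusted exact permutation p under 0.05) and 51.3% between Tumour and Naive. Without MP 2, which had the lowest MP value at 1.65%, the MP and Naive difference was 0.541 points (adjusted p = 0.0387, exact).

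The number of different GGRALI loops fell from Naive to MP to Tumour, as did the number of all distinct CDR3s (means of 24443, 6979 and 1512), so the fall is not particular to GGRALI. Naive 1 to 5 listed 601, 303, 545, 477 and 528, MP 1 to 5 listed 338, 56, 55, 76 and 335, and Tumour 1 to 5 listed 37, 45, 12, 32 and 15. At a common depth of 547665 reads, 489 ± 112 loops were expected in Naive and 170 ± 147 in MP (SD, n = 5, exact permutation p = 0.0238). At 574484 reads the expected number was 27.8 ± 14.2 in Tumour against 170 ± 148 in MP (SD, n = 5, exact permutation p = 0.00794, the smallest that 5 against 5 libraries allow). Tumour and Naive did not overlap either (exact permutation p = 0.00794). MP 1 and MP 5 lay above Naive 2 and beyond the other MP libraries. For all CDR3s, MP 1 and MP 5 were also beyond the other MP libraries but below Naive 2 (12401 and 13950 against 14914). Without them the MP and Naive difference grew from -319 to -427 loops (exact permutation p = 0.0357, the smallest for 3 against 5) and the Tumour and MP difference shrank from -142 to -34.4 (exact permutation p = 0.0357). Counting CDR3s of 10 or more reads only, MP and Naive differed by -60.0 loops (exact permutation p = 0.151).

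Few loops held most of the reads in Tumour. The most abundant loop of a library held 14.1% ± 2.20 of its GGRALI reads in Naive libraries, 16.4% ± 9.02 in MP libraries and 64.4% ± 17.0 in Tumour (SD, n = 5). The median over J segments of the same measure was 12.0%, 20.7% and 46.5%, so a leading loop of this size is not particular to GGRALI. The 5 most abundant loops held 36.9% to 44.9% of GGRALI reads in Naive, 27.4% to 71.7% in MP and 84.0% to 99.6% in Tumour. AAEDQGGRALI led all 5 Naive libraries. APYQGGRALI led MP 3, MP 4, MP 5 and Tumour 4, and each of the other Tumour libraries had a leader of its own.

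**Figure D2:**
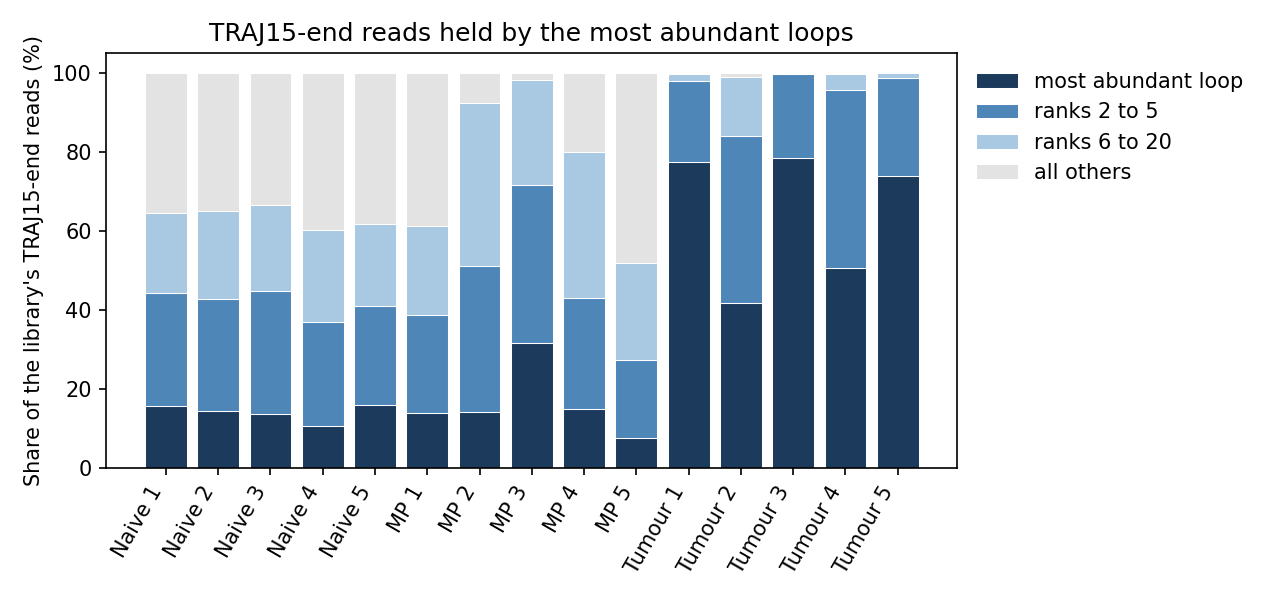
Share of each library's GGRALI reads, in percent, held by its most abundant loop, by ranks 2 to 5, by ranks 6 to 20 and by all other loops, with 1 bar per library. The top 5 loops hold at most 44.9% in Naive libraries and at least 84.0% in Tumour libraries.

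By reads, Naive libraries shared most of their GGRALI repertoire and MP libraries a smaller part, while most loops of each group were in 1 library only (980 of 1471 in Naive, 536 of 670 in MP). Loops in 1 library only made up 66.6% of Naive, 80% of MP and 89.1% of Tumour loops. Over all CDR3s the values were 68.6%, 77.4% and 85.9%, so this is not particular to GGRALI. In Naive, 100 loops were listed in all 5 Naive libraries and held 80.0% ± 1.85 of GGRALI reads (SD, n = 5), close to the 78.7% ± 0.548 for CDR3s of any end. In MP, 6 loops were in all 5 MP libraries and held 24.0% ± 4.20 of GGRALI reads, against 65.8% ± 1.39 for all CDR3s. No Tumour loop was in all 5 Tumour libraries, 13 of 119 were in at least 2, and over all CDR3s the ones in all 5 held 35.3% ± 9.24 of reads. Of the 13, APCQGGRALI, APHQGGRALI, ASYQGGRALI, TPYQGGRALI and VPYQGGRALI lie 1 substitution from APYQGGRALI. Possible reading errors were not folded for this count. MP and Naive had 287 loops in common, 19.5% of the Naive and 42.8% of the MP loops, and 17 loops appeared in all 3 groups. Like counts over all CDR3s are not given. Loops also listed in Naive held 72.3% ± 7.79 of MP GGRALI reads, beside 85.9% ± 1.13 of MP reads for all CDR3s. Loops also listed in MP held 67.3% ± 2.23 of Naive GGRALI reads, beside 67.1% ± 1.02 for all CDR3s (SD, n = 5).

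The Morisita-Horn index, which runs from 0 for no shared loops to 1 for equal frequencies, gave 0.971 ± 0.0142 among the 10 Naive pairs, 0.460 ± 0.230 among the 10 MP pairs and 0.180 ± 0.100 among the 25 pairs of a Naive and an MP library. MP pairs ranged from 0.183 (MP 2 and MP 3) to 0.852 (MP 1 and MP 5). Pairs within Naive and within MP exceeded pairs between them by 0.535 (one-sided exact permutation p = 0.00794 over 10 libraries). Tumour pairs had 0.104 ± 0.146, MP and Tumour pairs 0.124 ± 0.159, and Naive and Tumour pairs 0.00542 ± 0.00634 (SD over pairs, which share libraries).

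For single loops, read counts were fitted across all CDR3s of a pair of groups with edgeR's quasi-likelihood test, and a loop was called at a Benjamini-Hochberg adjusted p under 0.05. Between MP and Naive, 131 of the 1934 loops had enough reads to be tested (10 or more in 3 libraries). Of those, 16 were called higher in MP (12.2%) and 68 lower (51.9%), beside 12.6% and 48.1% of all 5954 tested CDR3s, so the GGRALI loops moved about as often as CDR3s in general. Their median log2 fold change was -4.47 against -3.35 for all. A tested loop had to reach the read minimum in some group, so these counts describe the more abundant loops. A loop listed in only 1 of the groups was tested through that group alone, so the filter fixed its direction. Where a loop reached the minimum in 3 libraries of 1 group alone, the filter favoured that group. The 68 lower loops held 69.8% ± 2.64 of Naive GGRALI reads and 6.51% ± 4.44 in MP, where 47 of them were not listed. The 16 higher loops held 44.3% ± 15.5 of MP GGRALI reads and 1.25% ± 0.303 in Naive, where 8 were not listed (SD, n = 5). Both sets were picked by this same contrast, so their shares describe the calls and do not test them. Like values over all called CDR3s are not given. Without any one Naive library, 7 to 10 loops were called higher and 56 to 59 lower, of 115 to 121 tested. Over all 5090 to 5370 CDR3s tested in those fits, 541 to 550 were higher and 2182 to 2390 lower. Without MP 1 it was 8 and 72 of 114 tested loops, beside 517 and 3064 of 5343 CDR3s. Without MP 5 it was 9 and 71 of 114, beside 542 and 3080 of 5379. Without both it was 8 and 77 of 107, beside 356 and 3436 of 4867.

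**Figure D3:**
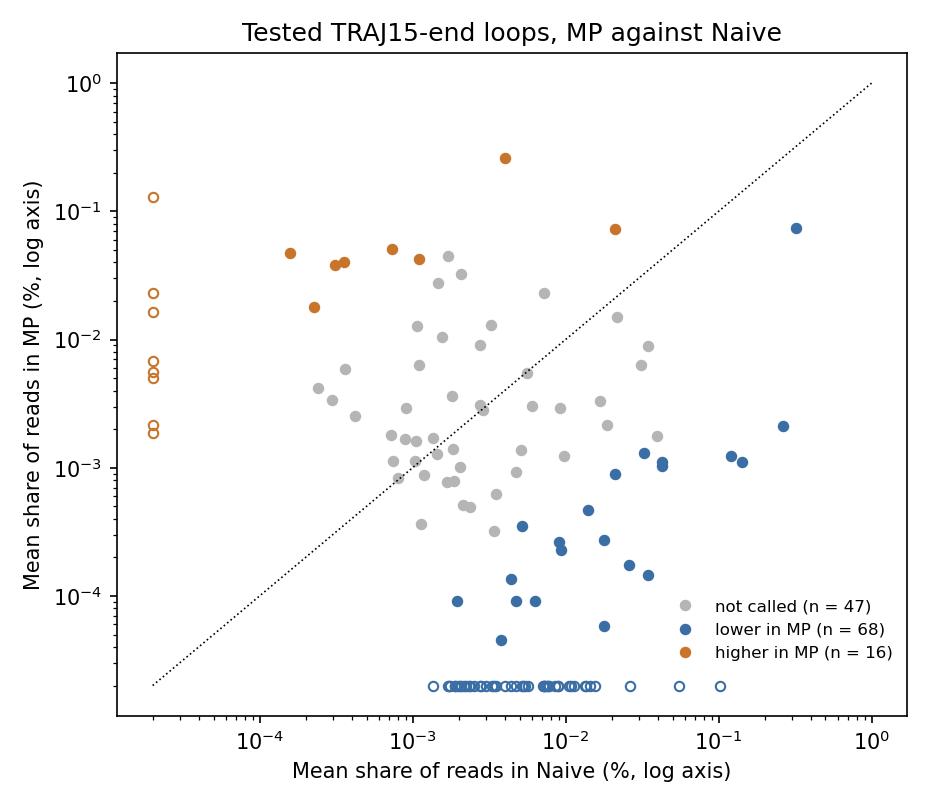
Mean share of reads in MP against Naive, in percent on log axes, for the 131 tested GGRALI loops, with 1 point per loop coloured by its edgeR call. Open points along the axes stand for the 47 called loops not listed in MP and the 8 not listed in Naive, and the dotted line marks equal shares.

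APYQGGRALI, the leading MP loop, was a minor loop in Naive. It had 26, 48, 23, 0 and 24 reads in Naive 1 to 5, against 1418, 0, 5168, 1684 and 545 in MP 1 to 5. Every MP library that listed it was above every Naive library, and MP 2 did not list it. Its mean share was 0.261% ± 0.305 in MP and 0.00405% ± 0.00312 in Naive, a ratio of 64.5 (log2 fold change 6.00, SE 1.91, edgeR adjusted p = 0.0205). The call was lost without Naive 1 (edgeR adjusted p = 0.0507).

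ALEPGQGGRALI was listed in every MP library and in no other. It had 1690, 122, 1824, 520 and 528 reads in MP 1 to 5. Its mean share was at least 259-fold higher in MP than in Naive, taking 3 reads per library as the floor (edgeR adjusted p = 0.000763), and at least 333-fold lower in Tumour than in MP (edgeR adjusted p = 0.0103). It reached the read minimum through MP alone, so the filter fixed the direction of both calls. MP 2 had the lowest and MP 3 the highest level.

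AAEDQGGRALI and ATDADQGGRALI were the only GGRALI loops in all 10 Naive and MP libraries. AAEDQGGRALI, the leading Naive loop, had 2645, 1915, 1842, 1146 and 2166 reads in Naive 1 to 5 and 424, 921, 350, 532 and 291 in MP 1 to 5. All Naive shares (0.207% to 0.376%) were above all MP shares (0.0425% to 0.135%), a ratio of 4.30 (log2 fold change -2.10, SE 0.50, edgeR adjusted p = 0.00470). The call was lost when CDR3s were kept at any read number (edgeR adjusted p = 0.108). ATDADQGGRALI went the other way: 126, 58, 150, 147 and 149 reads in Naive 1 to 5 and 405, 437, 1187, 223 and 261 in MP 1 to 5. Its MP shares (0.0382% to 0.177%) lay above its Naive shares (0.0106% to 0.0266%), a ratio of 3.48 (log2 fold change 1.80, SE 0.63, edgeR adjusted p = 0.0304). That call was lost without MP 3, and without Naive 1, Naive 2, Naive 3 or Naive 5 (edgeR adjusted p = 0.0501 to 0.0687), and without the read minimum (edgeR adjusted p = 0.230).

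The other leading Naive loops were rare in MP. AIDYQGGRALI had 1928, 1626, 1820, 1118 and 1401 reads in Naive 1 to 5, and in MP only the 2 diverse libraries listed it, with 36 in MP 1 and 44 in MP 5 (log2 fold change -6.94, SE 1.79, edgeR adjusted p = 0.00832). AIDHQGGRALI (416 to 730 reads) and AIDRRGGRALI (259 to 399 reads) were in every Naive library and in no MP library, a share at least 233-fold and 126-fold lower in MP (edgeR adjusted p = 0.000662 for both). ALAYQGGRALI (719 to 1161 reads in Naive), ATYQGGRALI (571 to 953) and ALKGGRALI (152 to 335) were each in 2 MP libraries, with at most 42 reads, and were called lower (ratios of 130, 96.8 and 41.3, edgeR adjusted p = 0.00528, 0.00831 and 0.0151). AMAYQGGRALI, in MP 1 alone, was called lower (edgeR adjusted p = 0.0327), a call lost without any one Naive library (edgeR adjusted p = 0.0551 to 0.0604). Among loops with reads in both groups the largest falls were those of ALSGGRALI, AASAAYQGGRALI and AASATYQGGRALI (log2 fold changes -7.85, -7.72 and -7.06, edgeR adjusted p = 0.000780, 0.00183 and 0.00351). All 3 were in every Naive library and, within MP, in MP 5 alone, at 2 to 6 reads. Every loop named in this paragraph met the read minimum through Naive and not through MP. The filter therefore fixed or favoured a fall.

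Several leading MP loops rested on 1 or 2 libraries. AIQGGRALI had 533 reads in MP 2 and 2010 in MP 3 and none in the other MP libraries. AAYQGGRALI had 1288 reads in MP 4 and 5 in MP 5, and was not called (edgeR adjusted p = 0.127). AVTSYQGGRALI had 1505 reads in MP 3, 48 in MP 1 and 41 in MP 5, against 5 in Naive 5 (log2 fold change 8.04, SE 2.78, edgeR adjusted p = 0.0296), a call lost without any one Naive library (edgeR adjusted p = 0.0588 to 0.0685). Without MP 1, MP 3 or MP 5 it fell below the read minimum and was not tested. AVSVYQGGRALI, called higher, had 36, 0, 151, 344 and 27 reads in MP 1 to 5 and 2 and 5 in Naive 3 and Naive 5 (log2 fold change 6.19, SE 1.98, edgeR adjusted p = 0.0212).

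Of the other loops named for MP, 2 more began with ATD. ATDAPQGGRALI had 520, 348, 0, 612 and 247 reads in MP 1 to 5 and 21 in Naive 3 (log2 fold change 6.08, SE 2.25, edgeR adjusted p = 0.0377). ATDDPQGGRALI had 227, 0, 0, 735 and 242 in MP 1 to 5 and 9 in Naive 3 (log2 fold change 6.84, SE 2.57, edgeR adjusted p = 0.0402). Both calls were lost without Naive 1, Naive 2, Naive 4 or Naive 5 (edgeR adjusted p = 0.0760 to 0.0879), the first also without MP 4 (edgeR adjusted p = 0.0527). ATDDPQGGRALI fell below the read minimum without MP 1, MP 4 or MP 5 and was not tested there.

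The 6 loops in all 5 MP libraries had 8 to 12 residues. ALGGRALI, the shortest, had 355, 127, 326, 272 and 328 reads in MP 1 to 5 and 10 and 2 in Naive 1 and Naive 4 (log2 fold change 6.73, SE 1.48, edgeR adjusted p = 0.00329). APLQGGRALI had 609, 70, 147, 398 and 289 reads in MP 1 to 5 and at most 11 in a Naive library (log2 fold change 5.25, edgeR adjusted p = 0.00267). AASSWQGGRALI had 24, 11, 112, 11 and 13 reads in MP 1 to 5 and none in Naive (edgeR adjusted p = 0.00357). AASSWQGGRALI was thus tested through MP alone, which fixed its direction. The last 2 were singled out after their values were seen. The other 3 are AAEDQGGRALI, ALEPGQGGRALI and ATDADQGGRALI.

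**Figure D4:**
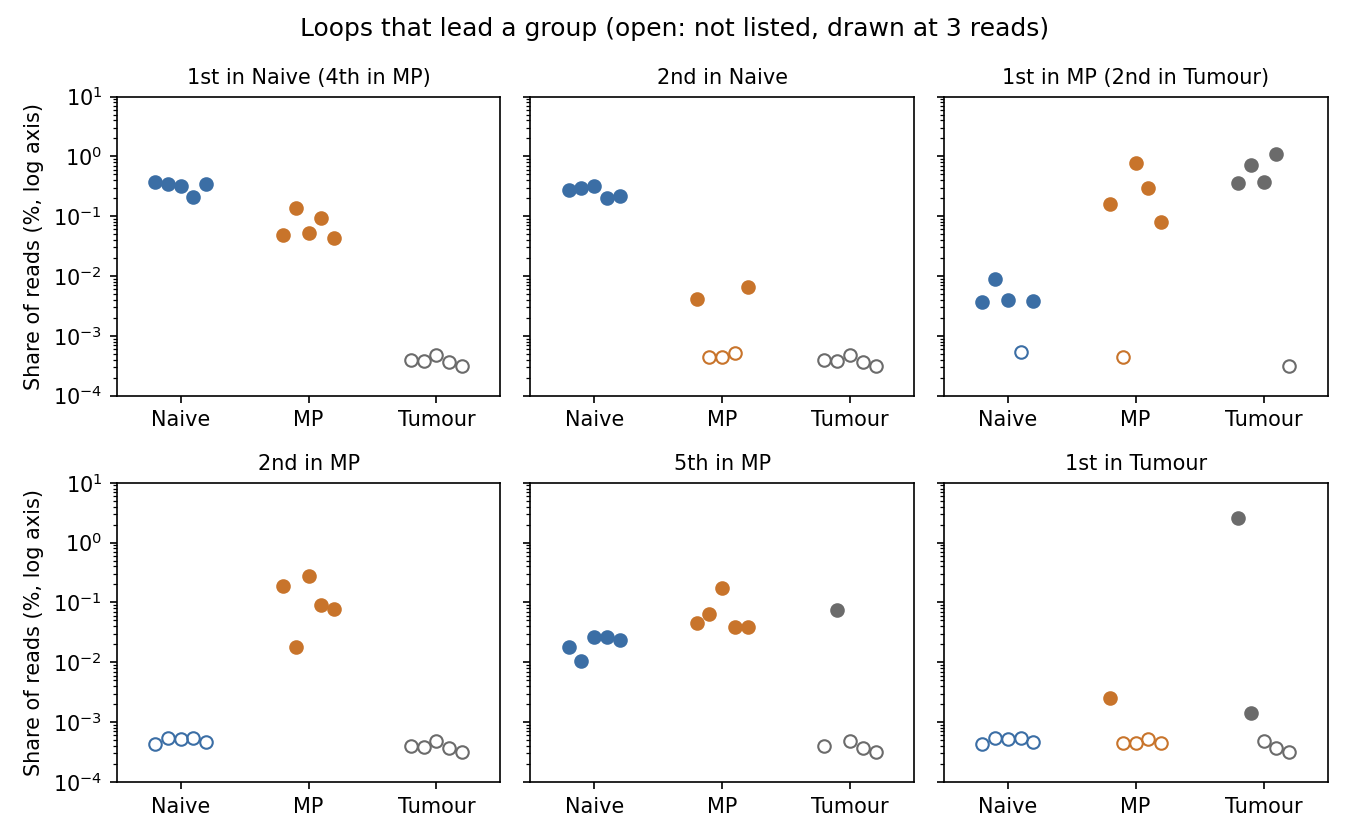
Share of reads, in percent on a log axis, of 6 leading GGRALI loops in each library, titled by their rank by mean share. Open points mark libraries that do not list the loop, drawn at 3 reads. The leader of Naive is in all 10 Naive and MP libraries, the 2nd of MP is in MP alone, and the leader of Tumour is high in 1 tumour.

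In prostate tumours, APYQGGRALI was the recurrent loop with the most reads. The only other GGRALI loop in 4 tumours, APHQGGRALI, had 6, 7, 3 and 23 reads there. APYQGGRALI had 2707, 5596, 2367, 8787 and 0 reads in Tumour 1 to 5, a mean share of 0.507% ± 0.407 (SD, n = 5). Tumour 5, which did not list it, also had the lowest GGRALI share of reads. Against Naive its ratio was 125 (log2 fold change 6.96, SE 2.07, edgeR adjusted p = 0.00920), and against MP it was 1.94 and not called (log2 fold change 0.96, SE 1.98, edgeR adjusted p = 0.670). The 2 comparisons share the Tumour libraries. The only other loop called higher in Tumour than in Naive was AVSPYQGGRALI, with 35, 427 and 479 reads in Tumour 1, Tumour 2 and Tumour 5 and at most 8 in a Naive library (log2 fold change 5.72, SE 2.12, edgeR adjusted p = 0.0255). This call was lost with TMM factors (edgeR adjusted p = 0.0509) and without Naive 2, Naive 3, Naive 4 or Naive 5 (edgeR adjusted p = 0.0564 to 0.0623). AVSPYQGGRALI met the read minimum only through Tumour 1, Tumour 2 and Tumour 5, so it was not tested without any one of them. It is also 1 substitution from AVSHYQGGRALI, which had 18995 reads in Tumour 1.

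Those 2 were the loops called higher among 99 tested between Tumour and Naive (2.02%), beside 3.38% of all 4671 tested CDR3s, and 90 (90.9%) were called lower, beside 86.7%. Of the 90 lower loops 88 were not listed in any tumour. These 88 reached the read minimum through Naive alone, so the filter fixed their direction. The 2 that were listed, AFYQGGRALI and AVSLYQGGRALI, had 12 reads in Tumour 4 and 4 reads in Tumour 1 (log2 fold changes -6.69 and -3.94, edgeR adjusted p = 0.00331 and 0.00696). They too met the read minimum through Naive and not through Tumour, so the filter favoured that direction. Between Tumour and MP, 27 loops were tested, of which 22 (81.5%) were called lower in Tumour, beside 66% of all 1666 CDR3s, and 1 (3.70%) higher, beside 7.68%. None of the 22 was listed in any tumour, and together they held 36.4% ± 3.12 of MP GGRALI reads (SD, n = 5). All 22 reached the read minimum through MP alone, which fixed their direction in the same way. Without MP 1 and MP 5 only 8 loops were tested, 5 lower and 0 higher (edgeR), with 6 at an unadjusted p under 0.05. Of all 642 CDR3s tested in that fit, 225 were lower and 68 higher. Without MP 1 alone 8 of 12 were called lower, beside 572 of 1048 CDR3s, and without MP 5 alone 9 of 14, beside 587 of 1086.

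The loop called higher in Tumour than in MP was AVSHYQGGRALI, and it rested on a single tumour. It had 18995 reads in Tumour 1, 11 in Tumour 2, 22 in MP 1 and none elsewhere (log2 fold change 9.93, SE 4.07, edgeR adjusted p = 0.0418). The call was lost with TMM factors (edgeR adjusted p = 0.0819) and without MP 2, MP 3, MP 4 or MP 5 (edgeR adjusted p = 0.0976 to 0.103). Without Tumour 1, Tumour 2 or MP 1 the loop fell below the read minimum and was not tested. The next loops also had nearly all their Tumour reads in 1 tumour: ANYQGGRALI had 8935 reads in Tumour 3, AEIYQGGRALI 7326 in Tumour 2 with 16 in Tumour 4, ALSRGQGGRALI 6641 in Tumour 4, AIDMKGGRALI 2766 in Tumour 5 and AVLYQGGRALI 1866 in Tumour 1. AIDMKGGRALI also had 8 reads in Naive 5, and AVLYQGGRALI 2 in Naive 4. ANYQGGRALI was also in every Naive library, at 74 to 103 reads, and in no MP library. Its Tumour to Naive log2 fold change was 4.19 and not called (SE 2.88, edgeR adjusted p = 0.189), and without Tumour 3 it was called lower (-9.77, edgeR adjusted p = 1.18e-05). ATDADQGGRALI appeared in Tumour 2 alone, with 591 reads, and was not called against Naive or MP (edgeR adjusted p = 0.835 and 0.401). Without Tumour 2 it was called lower in Tumour than in both (edgeR adjusted p = 9.99e-06 and 0.00484).

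APYQGGRALI, ATYQGGRALI, ANYQGGRALI and AAYQGGRALI belong to a series of 18 loops that differ only in the residue between a leading A and YQGGRALI. The series was picked out after its values were seen and is given as a description. It held 12.2% ± 0.660 of GGRALI reads of the Naive libraries, 16.2% ± 13.0 in MP and 38.6% ± 39.2 in Tumour (SD, n = 5). Threonine led it in all 5 Naive libraries, at 40.1% to 49.8% of its reads, with 11 to 15 loops of the series listed. Proline led it in the 4 MP libraries that listed any, at 55.1% to 99.8%, and in Tumour 1, Tumour 2 and Tumour 4, at 99.8% or more. Asparagine led it in Tumour 3, at 78.8%, and MP 2 and Tumour 5 listed none of the series.

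Before GGRALI, loops most often carried glutamine, and before that tyrosine. Of the distinct loops, 80.1% in Naive and 77.2% in MP had Q just before the end, and 40.7% and 34.2% had Y in the place before it. Q preceded the end in 88.2% ± 1.51 of Naive, 87.1% ± 3.16 of MP and 82.7% ± 32.3 of Tumour GGRALI reads (SD, n = 5), and no comparison passed (exact permutation, adjusted over 4 loop features, p = 0.746 for MP and Naive and 1 for both Tumour comparisons). Averaged per library over distinct loops, however, Q preceded the end in 82.2% of Naive and 73.1% of MP loops, a difference of -9.09 points that passed (exact permutation, adjusted p = 0.0159). Tumour 5, led by AIDMKGGRALI, had 25.0%, and the other tumours 94.7% to 100%.

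The pair YQ before the end was less frequent in MP than in Naive. It made up 49.9%, 53.0%, 52.1%, 52.2% and 49.0% of GGRALI reads in Naive 1 to 5 and 30.5%, 23.1%, 42.8%, 39.9% and 29.6% in MP 1 to 5. All MP libraries were below all Naive libraries, with a mean difference of -18.1 percentage points (exact permutation p = 0.00794, adjusted over 4 features p = 0.0317). By distinct loop the difference was -14.5 points (exact permutation, adjusted p = 0.0106). With any one library left out the groups still did not overlap, but the smallest adjusted p that could then be reached with the other features not passing was 0.0635. Without MP 1 and MP 5 the difference was -16.0 points (adjusted p = 0.143, exact). That was again the smallest adjusted p that could be reached with the other features not passing, and the groups still did not overlap. In Tumour the share was 97.4%, 79.0%, 99.7%, 52.2% and 12.8%, and neither comparison passed (exact permutation, adjusted p = 0.190 against MP and 0.603 against Naive). Without Tumour 5 the Tumour to MP difference was 48.9 points (adjusted p = 0.0317, exact).

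**Figure D5:**
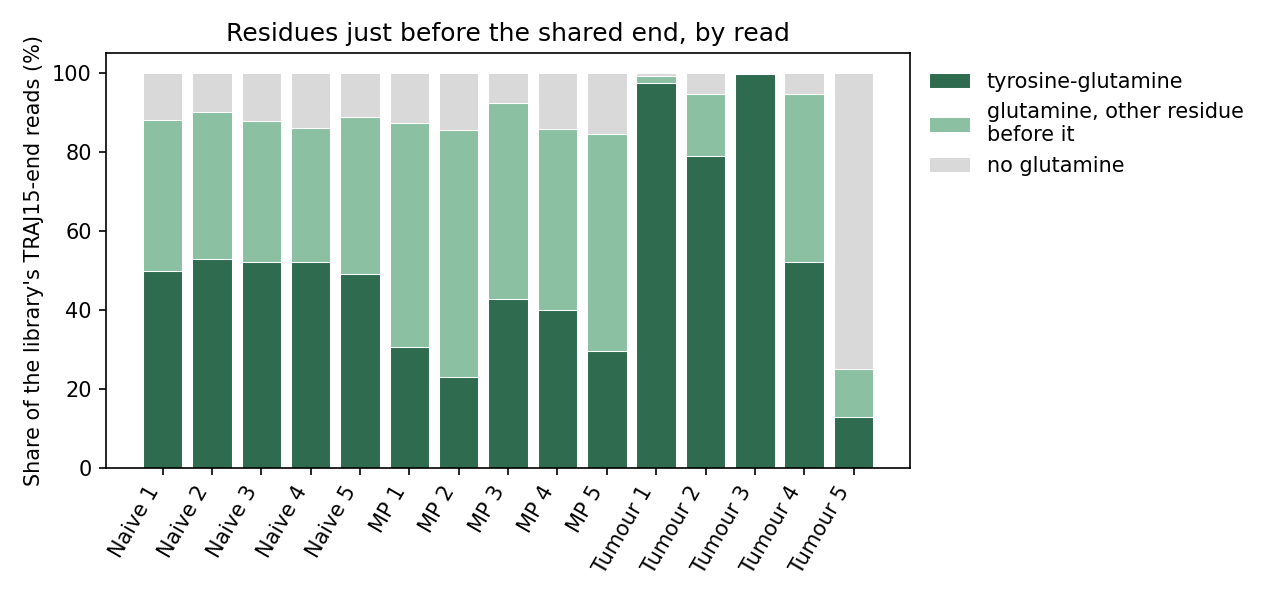
Share of each library's GGRALI reads, in percent, by the residues just before the end: tyrosine then glutamine, glutamine after another residue, or no glutamine. All 5 MP libraries hold less tyrosine-glutamine (23.1% to 42.8%) than all 5 Naive libraries (49.0% to 53.0%).

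Mean loop length weighted by reads was 11.0 residues in Naive and MP and 10.9 in Tumour, but the lengths that made up the mean differed. Loops of 11 residues held 56.7% ± 2.04 of GGRALI reads in Naive and 19.3% ± 3.04 in MP, and loops of 12 residues 10.7% ± 0.441 and 40.3% ± 4.49 (SD, n = 5, not tested). Mean length did not pass a test in any comparison (exact permutation, adjusted p = 0.746 for MP and Naive, 1 for Tumour and MP and 0.963 for Tumour and Naive). Counted by distinct loop, MP loops were shorter by 0.250 residues (exact permutation, adjusted p = 0.0106). Net charge, with arginine and lysine as +1 and aspartate and glutamate as -1, was 0.422 ± 0.0455 in Naive, 0.448 ± 0.149 in MP and 0.953 ± 0.334 in Tumour (SD, n = 5). The Tumour differences did not pass after adjustment (exact permutation, adjusted p = 0.159 against MP and 0.0635 against Naive). Counted by distinct loop, Tumour exceeded MP by 0.306 (exact permutation, adjusted p = 0.0317) and MP was below Naive by 0.104 (exact permutation, adjusted p = 0.0106), which is opposite in sign to the read-weighted difference. Possible reading errors made up 62.4% ± 17.4 of Tumour, 19.9% ± 16.5 of MP and 7.16% ± 1.23 of Naive loops (SD, n = 5). The loop features counted by distinct loop were not repeated with these errors folded, so copies of an abundant loop may weigh on them.

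Some openings of 3 residues are given as a description, chosen after their values were seen. They usually lie in or near the V-derived part of a loop, but in short loops reach into the join or the shared end. AID opened 23.9% ± 1.92 of GGRALI reads in Naive, against 2.10% ± 0.107 of all Naive reads, and 7.14% ± 3.03 in MP. AAE opened 16.0% ± 2.55 in Naive, led by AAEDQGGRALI, against 0.822% ± 0.0548 of all Naive reads. ATD opened 6.80% ± 0.938 in Naive and 17.7% ± 6.09 in MP, where it opened 1.03% ± 0.282 of all reads. ALE opened 0.511% ± 0.157 in Naive, 10.3% ± 4.45 in MP and no Tumour GGRALI read (SD, n = 5). Of the 15 tested loops with AID, 8 were called lower and 1 higher in MP, and of the 19 with ATD, 6 were called lower and 5 higher, beside 48.1% lower and 12.6% higher of all tested CDR3s. The AID share was near that background, and the starts were not tested.

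Just outside the defining end stood a loop of 8 residues, ALRGRALI, which ends in RGRALI. It had 5695, 2829, 4631, 3193 and 2792 reads in MP 1 to 5, more than ALGGRALI in each of them, and at most 2 in any Naive library, with 8 and 30 reads in Tumour 1 and Tumour 2. It was called higher in MP than in Naive (log2 fold change 11.31, SE 1.11, edgeR adjusted p = 0.000455). ALRGRALI reached the read minimum through MP alone, so the filter fixed that direction. It was named outside the rule used for GGRALI loops. The 85 peptides that end in RALI without GGRALI held 0.626% ± 0.137 of MP reads, 0.00989% ± 0.00453 of Naive reads and 0.000985% ± 0.00167 of Tumour reads (SD, n = 5). With all RALI ends counted, the share of reads was 2.26% ± 0.190 for Naive and 2.19% ± 0.740 for MP libraries, and the MP minus Naive difference -0.0714 points (exact permutation, adjusted p = 0.849), smaller than that for GGRALI alone. Whether these peptides come from TRAJ15 was not tested.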

How the data were processed

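The deposited values are read counts per CDR3 peptide, 1 list per library, as the authors deposited them and without normalization. Per the labels' protocols, RNA was taken with Trizol and amplified by arm-PCR, a multiplex RT-PCR, at iRepertoire. The read aligner, the CDR3 caller, error filters and molecular identifiers are steps not given in the sources used here. PCR reads are not independent molecules, so floors cover counting error only.

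Loops were picked by their last 6 residues. Their members, and the lists and tests, were chosen with earlier results of these data known. Shares are percentages of all reads or of distinct CDR3s in a library. Loops were named by rule: the 8 with the highest mean share in each group, and up to 4 called loops with the largest fold each way in each comparison, among those with reads in both groups. Loops of 15 or more residues would be described by length.

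Values per library were compared by exact permutation over libraries, with Benjamini-Hochberg adjustment over 39 J segments or 4 loop features. Single loops were fitted with edgeR 4.0.16 (quasi-likelihood, robust, total reads as library size, each pair of groups alone) in R 4.3.3 with limma 3.58.1. The filter was 10 reads in 3 libraries, and each SE is the log2 fold change over the root of F. Tests were checked on simulated data. Alternatives were TMM, DESeq2 1.42.0, other read minimums, the replicate number as a block, left-out libraries, other ends, and the folding of possible reading errors (a loop 1 substitution away from one with 100 or more times its reads). The alternatives without both MP 1 and MP 5, and the end RALI for distinct CDR3s, were chosen after seeing the data. Software was pandas 2.3.3, scipy 1.17.1, numpy 2.4.6 and matplotlib 3.10.9 under python 3.11.15.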

Additional observations from a re-analysis of the deposited data

Results flagged for a closer look

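In groups of 5, a library was singled out when its distance to the nearest other library was a large part of the group's range (Dixon's test). Chance singles out about 1 in 20 groups of like values. That rate does not hold for loops named for a high mean and listed in 1 or few libraries, where a single high library is built in. Naive 4 stood apart for the share of distinct CDR3s (1.92%, lowest) and for the read-weighted net charge (0.504, highest), and Naive 2 for the share of reads of ALKGGRALI (0.0278%, lowest).

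Among MP libraries, MP 3 stood apart with the highest share of reads of AIQGGRALI (0.300%), ATDADQGGRALI (0.177%) and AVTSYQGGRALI (0.225%), and MP 4 with that of AAYQGGRALI (0.224%).

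Among Tumour libraries, Tumour 5 had the lowest share of GGRALI reads with Q before the end (25.0%). Single tumours had the highest share of reads of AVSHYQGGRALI (2.54%, Tumour 1), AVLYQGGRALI (0.250%, Tumour 1), AEIYQGGRALI (0.941%, Tumour 2), ANYQGGRALI (1.42%, Tumour 3), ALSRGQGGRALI (0.812%, Tumour 4) and AIDMKGGRALI (0.293%, Tumour 5).

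Outside the defining end, peptides ending in RALI without GGRALI held a mean of 0.626% of MP reads, against 0.00989% in Naive.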

How the results depend on the processing

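Of the alternatives for the 28 group results, most kept direction and call. Leaving out the most abundant loops, the MP minus Naive share of reads was -0.700 points (past the threshold), length 0.107 residues and charge -0.194 (both turned), and the Tumour minus MP share -0.337 points (turned). Weighting by distinct loop gave MP minus Naive length -0.250, charge -0.104 (turned) and Q share -9.09 (length, charge and Q past the threshold), Tumour minus MP charge 0.306 and Q share 5.66 (turned), and Tumour minus Naive YQ share -2.78 (turned). These by-loop values were not repeated with possible reading errors folded. The end RALI turned the Tumour minus MP share of reads to -0.208 points. Without the deepest library of each group, Tumour minus Naive was 0.159 points (turned). Without MP 1 and MP 5, the MP minus Naive YQ share was -16.0 (adjusted p = 0.143, exact permutation) and the Tumour minus MP length 0.0527 (turned). That p was the smallest the YQ share could then reach with the other features not passing. With 10 or more reads per CDR3 the MP minus Naive number of loops was -60.0. The causes were not tested.

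Whether same-numbered Naive and MP libraries share a mouse is not stated, so they were treated as sharing only a number. They correlated at 0.0125 to 0.047, and 2 of 5 correlated best with their own number. Tumour libraries came from males of 27 weeks, and Naive and MP libraries from mice of 9 weeks. An equal number therefore marks no shared mouse there, and the block has no basis in the design for Tumour comparisons. With the replicate block the smallest exact p is 0.0625, so the YQ difference (-18.1) and the numbers of loops (-319.1, -142.4 and -461.0) could not pass. In edgeR the block gave 0 loops higher and 5 lower of 27 in Tumour than MP (17 with an unadjusted p under 0.05), beside 57 and 265 of 1666 CDR3s. It gave 1 of 99 higher in Tumour than Naive, beside 125 of 4671. In MP against Naive it gave 15 higher and 70 lower of 131, beside 613 and 3047 of 5954. It did not call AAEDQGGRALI or ATDADQGGRALI in MP against Naive (edgeR adjusted p = 0.217 and 0.410) or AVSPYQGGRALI in Tumour against Naive (edgeR adjusted p = 0.325), nor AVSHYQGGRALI in Tumour against MP (edgeR adjusted p = 0.107). It turned AAYQGGRALI (MP over Naive, log2 fold change -3.13) and ANYQGGRALI (Tumour over Naive, -8.57), and the latter ran from -9.77 (without Tumour 3) to 4.52 with 1 library left out.

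Counts of loops called higher and lower moved with the read minimum. With 50 reads they were 7 and 25 of 42 in MP against Naive, beside 438 and 846 of all 1742 CDR3s tested. Tumour against MP had 0 and 8 of 11, beside 94 and 494 of 813. Tumour against Naive had 1 and 32 of 36, beside 124 and 1069 of 1341. With no read minimum, MP against Naive had 47 and 282 of 636, beside 2289 and 14848 of 28731. Tumour against MP then had 5 and 120 of 158, beside 521 and 4670 of 6978. Tumour against Naive had 7 and 474 of 513, beside 391 and 21912 of 24277. TMM gave 0 of 27 loops higher in Tumour than MP (22 with an unadjusted p under 0.05 in either direction), beside 112 of 1666 CDR3s. It gave 1 of 99 higher in Tumour than Naive, beside 145 of 4671. DESeq2 gave 0 of 27 higher in Tumour than MP (22 in either direction), beside 134 of 1666. Without MP 1 and MP 5 there were 8 of 107 higher in MP than Naive, beside 356 of 4867. There were 0 higher and 5 lower of 8 in Tumour than MP, beside 68 and 225 of 642.

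With 1 library left out, MP minus Naive ran from -0.907 to -0.537 points for the share of reads, 0.273 to 0.541 for distinct CDR3s, -0.0824 to 0.0258 for length, -0.0133 to 0.0855 for charge and -20.5 to -15.6 for YQ. Tumour minus MP ran from 0.0882 to 0.812 points for the share of reads, -0.237 to 0.184 for length, -8.76 to 9.98 for Q (adjusted p = 0.0317 without Tumour 5, exact permutation) and 27.1 to 48.9 for YQ. Tumour minus Naive ran from -0.599 to 0.124 points for the share of reads, -0.278 to 0.142 for length and -9.79 to 8.95 for Q. Loops called higher numbered 7 to 15 of 114 to 129 in MP against Naive, beside 517 to 739 of 5090 to 5822 CDR3s. Tumour against MP had 0 to 1 higher and 8 to 24 lower of 12 to 27, beside 81 to 122 and 572 to 1210 of 1048 to 1633. Tumour against Naive had 1 to 2 higher of 85 to 98, beside 106 to 146 of 3769 to 4634. Of the alternatives for named loops, 672 kept the call, 44 lost it, 6 gained it and 3 turned. Reads limit the rare loops: loops under 10 reads held 10.4% ± 3.05 of Naive GGRALI reads (SD, n = 5). Possible reading errors made up 7.16% ± 1.23 of Naive, 19.9% ± 16.5 of MP and 62.4% ± 17.4 of Tumour loops, and 1.10%, 0.472% and 1.16% of their reads.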
